A study of Homo sapiens with 16 samples.

Results

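Apalutamide is a drug that competes with androgens for their receptor, and here it was given to prostate cancer cells together with the androgen dihydrotestosterone (DHT) and compared with DHT alone. The comparison rests on 4 of the 16 libraries of the study, 2 treated with apalutamide and DHT and 2 treated with DHT alone, and was made across 16636 genes. Libraries were chosen by their treatment labels, and genes were kept when they reached 1 TPM in at least 2 libraries, TPM being a gene's length-corrected share of all transcripts in a library. All cells were LNCaP, an established line from a human prostate cancer that needs androgens to grow. Before their 48 h of treatment, cultures grew for 72 h with 5% fetal bovine serum and then for 48 h with 5% charcoal-stripped serum, which holds little steroid. The DHT group received 10 nM DHT and the solvent of the drug (DMSO). The apalutamide group received 10 nM DHT and 10 µM apalutamide in DMSO. Cells with vehicle received the solvents of both, ethanol and DMSO. Further groups used here received 10 µM apalutamide without DHT, or 10 µM enzalutamide or 10 µM bicalutamide with DHT. The remaining groups received 10 µM enzalutamide or 10 µM bicalutamide without DHT, and entered the gene filter and the fit of all 16 libraries. The labels give 2 biological replicates per group, of 1 cell line. In the labels biological replicate 1 carries the number 3 and replicate 2 the number 7, in some libraries with a letter A, B or C added. The labels do not say what these numbers or letters stand for. Libraries with the same number were treated as a pair. The p-values below measure the spread left after the shift shared by libraries of the same number, the block, is removed. That spread was pooled over all 16 libraries. Results given without the block keep the shift in the spread.

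Androgens such as DHT bind a nuclear receptor, which moves to the nucleus, binds DNA and raises or lowers the transcription of its target genes. Apalutamide occupies the site where the hormone binds, and the receptor then enters the nucleus and binds DNA less well. In prostate cells the genes that this hormone raises include secreted proteases of the kallikrein family, membrane transporters and enzymes of lipid synthesis, and in androgen-dependent cancer cells the hormone also drives division. Apalutamide and enzalutamide share a thiohydantoin core, in apalutamide with a cyclobutane ring and a pyridine ring where enzalutamide carries a pair of methyl groups and a benzene ring. Bicalutamide is an older drug without the thiohydantoin ring.

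Apalutamide changed the level of 4545 of the 16636 genes (27.3%). Of these, 2197 genes were higher (13.2% of all tested) and 2348 lower (14.1%) with apalutamide and DHT than with DHT alone. A change here is a limma adjusted p below 0.05 in a fit with the replicate number as a block. Without that block 1391 genes changed (8.36%), of which 707 were higher (4.25%) and 684 lower (4.11%), and all 1391 were among the 4545 in the same direction. A limma fit of the 4 libraries alone called none (0), with 3591 genes at an unadjusted p below 0.05, and leaving out 1 library of DHT alone left 2588 (without replicate 1) or 2954 calls (without replicate 2). The difference reached 2-fold on the log2(TPM + 1) scale for 490 of the genes that fell and 394 of those that rose, and 4-fold for 59 and 29 genes. All 4545 genes moved in the same direction in both pairs of libraries, against 67.7% of all genes tested. The calls were made from these same pairs, so this agreement largely follows from the selection and is no separate support. Over all genes tested, log2 fold changes had a median of 0.

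**Figure D1:**
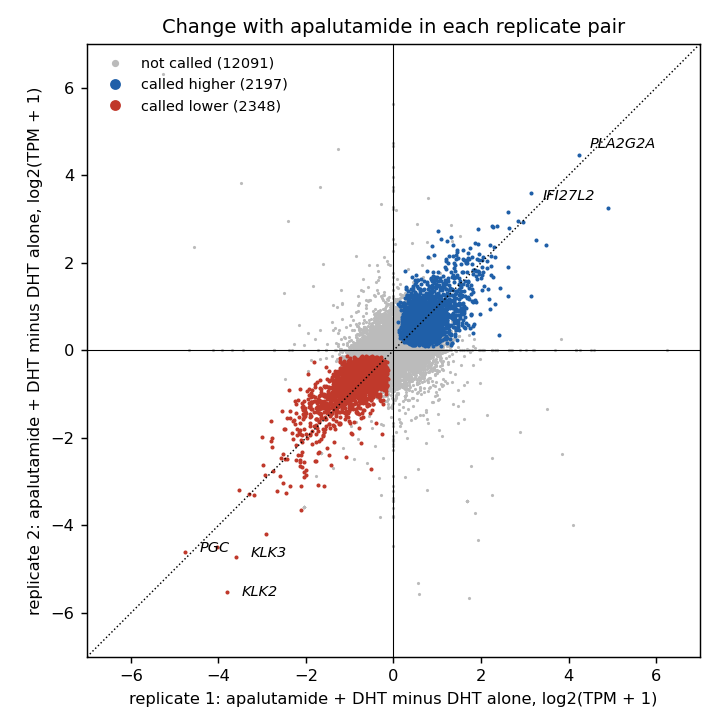
Each point is 1 of 16636 genes, with the log2(TPM + 1) difference between apalutamide with DHT and DHT alone in replicate 1 on the horizontal axis and in replicate 2 on the vertical axis, and the dotted line marks equal differences. The 2197 genes called higher (blue) and 2348 called lower (red) lie in the quadrants where both pairs moved the same way, while the 12091 genes not called (grey) spread over all quadrants. The calls were made from these same pairs, which favours genes in those quadrants.

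The genes that fell furthest included PGC, KLK2 and KLK3, and those that rose furthest included PLA2G2A and IFI27L2. Their promoters are shown because these genes carry the largest changes and because the receptor binds DNA at short motifs. Each is read from RefSeq for GRCh38.p14 and runs 5′ to 3′ from 250 bases before a transcript start to 50 bases after it. That start is the gene's own start for PGC, KLK2, KLK3 and IFI27L2, whereas for PLA2G2A, with 3 windows listed, the first is shown, whose start at 19979659 lies inside the gene. Capitals mark AGAACA, an arm of the androgen response element, on either strand.

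PGC, chr6:41747348-41747647, minus strand: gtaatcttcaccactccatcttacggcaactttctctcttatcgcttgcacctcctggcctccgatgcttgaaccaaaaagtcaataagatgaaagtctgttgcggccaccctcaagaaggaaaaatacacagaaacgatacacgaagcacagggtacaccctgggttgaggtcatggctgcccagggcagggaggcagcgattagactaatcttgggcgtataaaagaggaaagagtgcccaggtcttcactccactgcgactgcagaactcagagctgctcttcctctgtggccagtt
KLK2, chr19:50873189-50873488, plus strand: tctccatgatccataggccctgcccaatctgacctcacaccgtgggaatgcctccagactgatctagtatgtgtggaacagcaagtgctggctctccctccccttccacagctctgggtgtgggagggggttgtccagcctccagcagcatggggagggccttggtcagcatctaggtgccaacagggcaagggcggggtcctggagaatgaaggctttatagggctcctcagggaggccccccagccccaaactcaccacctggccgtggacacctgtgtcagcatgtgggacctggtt
KLK3, chr19:50854665-50854964, plus strand: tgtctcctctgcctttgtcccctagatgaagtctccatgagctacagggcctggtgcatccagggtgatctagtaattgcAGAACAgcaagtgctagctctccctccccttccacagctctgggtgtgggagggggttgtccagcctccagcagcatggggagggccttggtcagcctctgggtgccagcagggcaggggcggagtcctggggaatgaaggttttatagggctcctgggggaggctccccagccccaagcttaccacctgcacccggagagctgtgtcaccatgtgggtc
PLA2G2A, chr1:19979610-19979909, minus strand: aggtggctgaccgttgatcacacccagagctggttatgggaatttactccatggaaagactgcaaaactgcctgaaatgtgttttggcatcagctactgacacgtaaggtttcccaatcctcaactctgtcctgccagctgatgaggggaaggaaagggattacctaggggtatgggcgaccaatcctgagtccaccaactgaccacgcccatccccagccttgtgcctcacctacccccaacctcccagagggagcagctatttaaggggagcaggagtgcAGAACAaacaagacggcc
IFI27L2, chr14:94129555-94129854, minus strand: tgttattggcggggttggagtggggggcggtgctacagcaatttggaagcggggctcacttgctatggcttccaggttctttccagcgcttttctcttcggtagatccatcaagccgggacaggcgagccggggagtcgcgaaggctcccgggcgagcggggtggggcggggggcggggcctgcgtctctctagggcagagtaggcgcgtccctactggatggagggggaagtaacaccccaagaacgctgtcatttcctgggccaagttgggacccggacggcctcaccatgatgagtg

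AGAACA was found once in the KLK3 promoter, starting 170 bases before the gene's start, and once in the window shown for PLA2G2A, 32 bases after the transcript start of that window. The PLA2G2A window at the gene's outermost start, 19980434, held 0 matches. It was not in the windows of PGC, KLK2 and IFI27L2. KLK2 and KLK3 are neighbouring copies, and their 2 windows were identical at 245 of 309 aligned positions (79.3%), with a longest shared run of 80 bases. Where KLK3 holds this motif, the KLK2 window differed by A1G, with positions counted from 1 at the 5′ end of the motif and the KLK3 base given first. Of the genes lowered at least 2-fold, 36 of the 350 with a promoter in the RefSeq table (10.3%) held AGAACA on either strand of their first listed window, and of those raised at least 2-fold, 34 of 230 (14.8%) did. The share was 8.87% among the 10584 tested genes with a promoter and 14.9% among all 27305 promoters in that table. An exact match to the whole element, AGAACA and TGTTCT with 3 bases of any kind between them, was found in 1 of those 27305 promoters. None (0) of the tested genes had one. Elements that differ from it at any fixed base were not searched for, so these counts do not show that promoters lack an androgen response element.

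PGC, which encodes the pepsin precursor progastricsin (chromosome 6, 41736711 to 41747397 in GRCh38.p14), stood at 43.3 and 30.8 TPM with DHT alone and at 0.64 and 0.31 TPM with apalutamide and DHT. Both apalutamide libraries were close to vehicle, at 0.42 and 0.04 TPM. The fall was 4.68 on the log2 scale (SE 0.20, limma adjusted p 3.04e-07), which is 25.6-fold on the log2(TPM + 1) scale. KLK3 encodes prostate-specific antigen (chromosome 19, 50854915 to 50860764). It stood at 4102 and 2422 TPM with DHT alone and at 339.8 and 90.35 TPM with apalutamide. The groups were far apart, but both apalutamide libraries also stood above both vehicle libraries, at 53.04 and 24.01 TPM. KLK3 fell by 4.16 on the log2 scale (SE 0.32, adjusted p 1.66e-05).

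KLK2, a protease that activates prostate-specific antigen, showed the same order of groups (chromosome 19, 50873439 to 50880567). It was at 494 and 485 TPM with DHT alone, at 34.6 and 9.53 TPM with apalutamide and at 4.78 and 3.60 TPM with vehicle. Its log2 fold change was -4.66 (SE 0.41, adjusted p 3.71e-05), and the replicates with apalutamide differed more than those with DHT alone. RSEM, which estimated the values, divides reads that fit several genes, so the split between KLK2 and KLK3 is uncertain. TMPRSS2, a membrane serine protease (chromosome 21, 41464305 to 41508158), fell from 429 and 279 TPM to 46.05 and 27.2 TPM. These are near the vehicle libraries, at 46.4 and 31.1 TPM, and the log2 fold change was -3.25 (SE 0.11, adjusted p 6.21e-08).

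The other genes with the lowest fold changes were of varied function. CHRNA2, a subunit of the nicotinic acetylcholine receptor (chromosome 8, 27459756 to 27479261), fell from 30.6 and 32.6 TPM to 0.92 and 0.50 TPM. ORM1, a plasma carrier protein (chromosome 9, 114323098 to 114326479), fell from 13.3 and 8.10 TPM to 0.25 TPM and a listed 0. ST6GALNAC1, a sialyltransferase that caps mucin sugars, fell from 52.5 and 45.1 TPM to 8.74 and 3.85 TPM. CENPN, a centromere protein, fell from 128 and 151 TPM to 15.9 and 20.03 TPM. The remaining 4 were TUBA3D, TRIM49D2, the pseudogene ZNF812P and the unnamed transcript AC092718.4, with log2 fold changes from -3.56 to -2.87. TUBA3D and TRIM49D2 belong to families of close copies, whose reads may have been divided between copies.

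PLA2G2A, a secreted phospholipase (chromosome 1, 19975431 to 19980434), rose the furthest. It was at 23.1 and 12.3 TPM with DHT alone and at 453 and 293 TPM with apalutamide and DHT, against 448 and 301 TPM with vehicle. In both pairs it rose to the vehicle level, with a log2 fold change of 4.35 (SE 0.09, adjusted p 1.58e-09), a 20.4-fold difference. IFI27L2 encodes a small mitochondrial protein of the interferon-inducible IFI27 family (chromosome 14, 94127781 to 94129604). It rose from 3.89 and 0.97 TPM to 42.5 and 22.8 TPM, by 3.37 on the log2 scale (SE 0.16, adjusted p 6.37e-07). DDC, the decarboxylase that makes dopamine and serotonin (chromosome 7, 50458442 to 50565405), rose from 110.2 and 72.4 TPM to 858 and 559 TPM. Its log2 fold change of 2.94 had a SE of 0.07 (adjusted p 1.58e-09).

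UGT2B17, which attaches glucuronic acid to androgens for their removal (chromosome 4, 68537173 to 68576322), rose from 25.2 and 38.4 TPM to 188 and 302 TPM. The secreted lectin REG4 rose from 4.46 and 3.79 TPM to 59.75 and 24.3 TPM, with the replicates of the apalutamide group further apart than for DDC. BCHE, the serum cholinesterase, rose from 9.84 and 13.4 TPM to 66.3 and 98.4 TPM. DAPK1, a kinase of cell death pathways, rose from 3.53 and 3.44 TPM to 22.1 and 31.0 TPM. SERPINI1, CCDC80 and the noncoding RNA LINC02672 rose by 2.54 to 2.89 on the log2 scale. In each of these genes both apalutamide libraries stood above both DHT libraries. The rule also picked RNA5SP392, a pseudogene of the 5S ribosomal RNA, and AC133555.4, an unnamed transcript. Both were listed at 0 in the 2 libraries with DHT alone, so no fold is given and they stood at 28.8 and 8.55 TPM and at 5.11 and 8.00 TPM with apalutamide. RNA5SP392 was at a listed 0 and 10.7 TPM with vehicle, and limma did not call it without the block (adjusted p 0.0791).

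**Figure D2:**
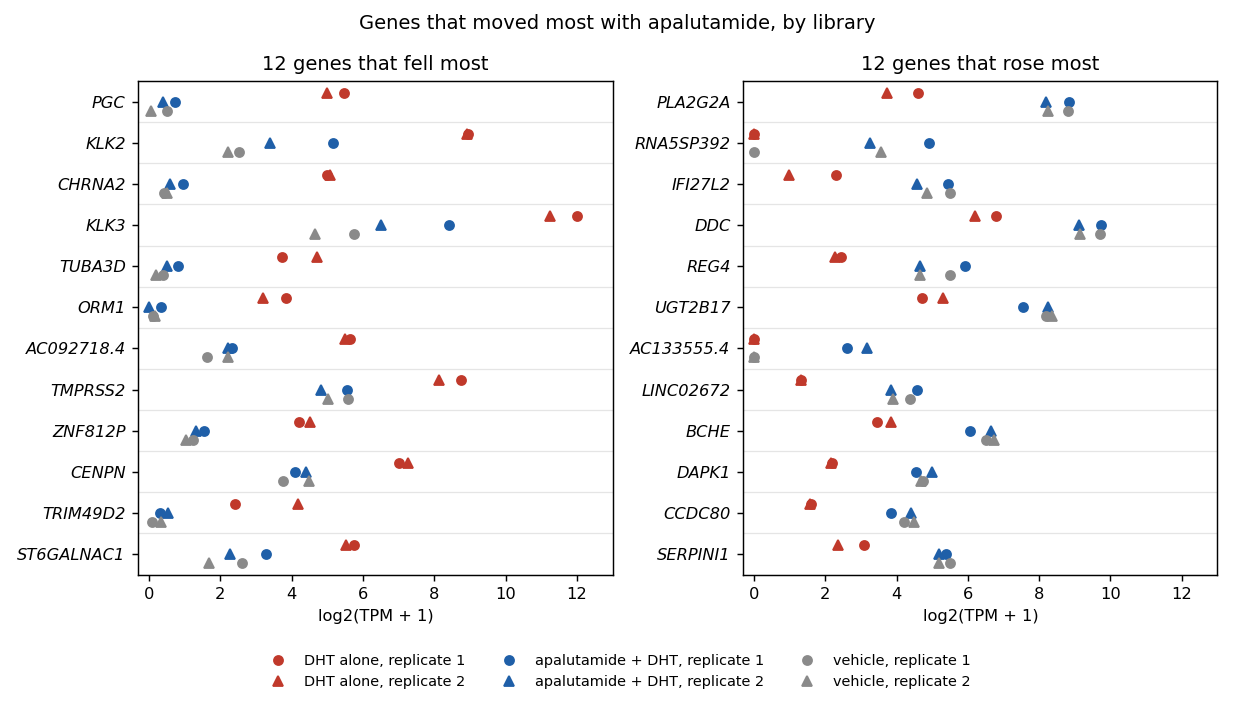
The 12 genes that fell most and the 12 that rose most are shown with log2(TPM + 1) in each library on the horizontal axis, for DHT alone (red), apalutamide with DHT (blue) and vehicle (grey), with circles for replicate 1 and triangles for replicate 2. Blue and red points do not overlap for any gene, by the rule that chose them. Blue points mostly sit beside the grey ones, except for KLK2 and KLK3, where they lie between, and AC133555.4, where vehicle is listed at 0 like DHT alone. For RNA5SP392 the vehicle points are far apart, at a listed 0 and 10.7 TPM.

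Gene lists of known pathways were then read against the whole table, in which 14.1% of genes fell and 13.2% rose (4.11% and 4.25% without the block). The lists were written with earlier results of these data known, so their shares describe the members and are no independent support. Lists are described by their counts and by their median log2 fold change, set beside the median of 0 over all genes. The bulk RNA of a culture cannot tell fewer cells of a kind from less RNA per cell. Of 43 tested androgen-induced genes, 36 fell and none (0) rose, with a median log2 fold change of -1.79 (-1.77 in replicate 1 and -1.72 in replicate 2). Without the block 34 fell. FKBP5, a chaperone of steroid receptors (chromosome 6, 35573590 to 35728583), fell from 81.4 and 92.8 TPM to 9.47 and 14.35 TPM, to the vehicle level of 11.99 and 13.5 TPM. The 7 members that were not called included the membrane proteins STEAP1 and STEAP2. STEAP1 was at 356 and 380.2 TPM with DHT alone and at 403 and 377 TPM with apalutamide (adjusted p 0.433). SLC45A3, the sugar transporter also known as prostein, fell from 133 and 159 TPM to 23.8 and 27.5 TPM.

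Of 13 tested androgen-repressed genes, 9 rose and 2 fell (6 and 1 without the block), with a median log2 fold change of 1.64. Besides DDC and UGT2B17, CAMK2N1, an inhibitor of a calcium-dependent kinase, rose from 93.8 and 47.4 TPM to 363 and 332 TPM. IGFBP3, which binds insulin-like growth factors outside the cell, rose from 110.9 and 124 TPM to 379 and 353 TPM. The 2 that fell were UGT2B28 and UGT2B11, relatives of UGT2B17. In these cells the list's name did not hold for them, since both were higher with DHT alone than with vehicle. The log2 differences were 2.37 and 1.38, with vehicle at 0.07 and 0.83 TPM for UGT2B28 and at 3.79 and 14.7 TPM for UGT2B11. UGT2B28 went from 4.21 and 9.04 TPM to 0.21 and 0.93 TPM, a log2 fold change of -2.24 (SE 0.17, adjusted p 1.11e-05). UGT2B11 went from 12.5 and 36.7 TPM to 2.33 and 12.3 TPM (log2 fold change -1.76, adjusted p 0.000351, and 0.396 without the block). In contrast, UGT2B15 was higher with apalutamide, at 54.75 and 176 TPM against 15.7 and 34.3 TPM (log2 fold change 2.03, adjusted p 0.000682, and 0.152 without the block). Enzymes of this family moved in opposite directions within the same libraries, though reads that fit several members may have been divided among them.

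Among 18 tested genes of steroid metabolism, 4 rose and 2 fell (1 and 2 without the block). These are 22.2% and 11.1%, beside 13.2% and 14.1% over all genes. The risers were the aldo-keto reductases AKR1C1, AKR1C2 and AKR1C3 and the dehydrogenase HSD17B14, which interconvert active and less active steroids. AKR1C3 went from 1.58 and 1.24 TPM to 9.66 and 6.81 TPM (log2 fold change 1.92, SE 0.23, adjusted p 0.000203). AKR1C1 and AKR1C2, near-identical copies, were called with the block (adjusted p 0.0351 and 0.0313) and not without it (0.168 and 0.262). CYP11A1, which cuts the side chain of cholesterol, fell from 2.99 and 3.30 TPM to 0.85 and 0.46 TPM, and HSD17B11 fell from 9.93 and 12.3 TPM to 6.90 and 5.49 TPM. Of 19 chaperones and cofactors of the androgen receptor, 1 fell, the chaperone FKBP4 (log2 fold change -0.34, adjusted p 0.189 without the block), and none (0) rose. Of 15 genes of the glucocorticoid receptor and the targets it shares with androgens, 6 fell and none (0) rose (4 fell without the block). Among them the transcription factor ZBTB16 fell from 19.05 and 22.4 TPM to 8.83 and 9.71 TPM.

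Most genes of cholesterol synthesis fell. Of 25 tested genes of cholesterol synthesis and uptake, 21 fell and 1 rose, with a median log2 fold change of -0.88 (19 fell and none (0) rose without the block). HMGCS1, an early enzyme of the pathway, fell from 139.6 and 159 TPM to 37.2 and 62.3 TPM. Both apalutamide values lay near those with vehicle, at 45.2 and 58.7 TPM. INSIG1, which holds back the activation of sterol synthesis genes, fell from 72.8 and 90.9 TPM to 21.1 and 33.6 TPM, by 1.57 on the log2 scale (SE 0.15, adjusted p 5.2e-05). The 1 gene that rose was TM7SF2, a sterol reductase, from 413 and 296 TPM to 523 and 429.6 TPM, and it was not called without the block (adjusted p 0.00343 and 0.36).

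Of 25 genes of fatty acid synthesis, 13 fell and 2 rose (10 and 0 without the block), with a median log2 fold change of -0.72. The elongase ELOVL5 fell from 690.3 and 636 TPM to 122 and 112 TPM (log2 fold change -2.49, SE 0.07, adjusted p 1.78e-08). ELOVL7 fell from 55.0 and 87.8 TPM to 11.8 and 14.2 TPM, and the fatty acid synthase FASN from 659 and 545 TPM to 243 and 234 TPM. Fatty acid oxidation was divided, with 7 of 26 genes lower and 5 higher (3 and 2 without the block). Its trifunctional enzyme subunit HADHB rose from 109.8 and 104 TPM to 157 and 167 TPM. In contrast the isomerase ECI2 fell from 193 and 198 TPM to 89.04 and 94.05 TPM, and the racemase AMACR from 278 and 207 TPM to 136 and 115 TPM, the latter not called without the block (adjusted p 0.0563).

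Genes of cell division were lower with apalutamide in each pair of libraries. Of 45 mitosis genes, 44 fell and none (0) rose, with a median log2 fold change of -1.28. Of 45 genes of DNA replication and S phase, 41 fell and none (0) rose, with a median of -1.05. Without DHT replicate 1 the mitosis count was 25. These counts rest on the pairing. Without the block, none (0) of the mitosis genes and 2 of the replication genes were called. The median level of the mitosis list on the log2(TPM + 1) scale was 3.66 and 4.74 with DHT alone and 2.14 and 3.51 with apalutamide. The median log2 fold change of its members was -1.60 in replicate 1 and -1.05 in replicate 2, and the second apalutamide library stood close to the first DHT library. For 18 of the 45 mitosis genes and 6 of the 45 replication genes the libraries of the 2 groups overlapped, while over all genes 47.9% did not overlap.

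MKI67, the proliferation marker Ki-67 (chromosome 10, 128096659 to 128126423), stood at 11.7 and 24.4 TPM with DHT alone and at 2.19 and 8.46 TPM with apalutamide. All values of the first group were above those of the second, and the adjusted p of its log2 fold change of -1.71 (SE 0.29) was 0.00191, or 0.345 without the block. AURKB, a mitotic kinase, fell from 16.8 and 39.03 TPM to 4.66 and 8.84 TPM. RRM2, a subunit of the reductase that supplies DNA precursors, fell from 55.1 and 113 TPM to 7.02 and 36.4 TPM. CCNB1, the cyclin that starts mitosis, went from 71.5 and 149.7 TPM to 30.7 and 77.3 TPM, so that its second apalutamide library was above its first DHT library. PTTG1, an inhibitor of chromatid separation, was the mitosis gene that did not pass, at 46.9 and 103 TPM against 23.2 and 53.7 TPM (adjusted p 0.188). Among 15 G1 cyclins and inhibitors, 5 fell and 2 rose, and without the block none (0) was called. The inhibitor CDKN1A rose from 269 and 187.5 TPM to 531 and 328 TPM (adjusted p 0.00463, and 0.379 without the block).

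**Figure D3:**
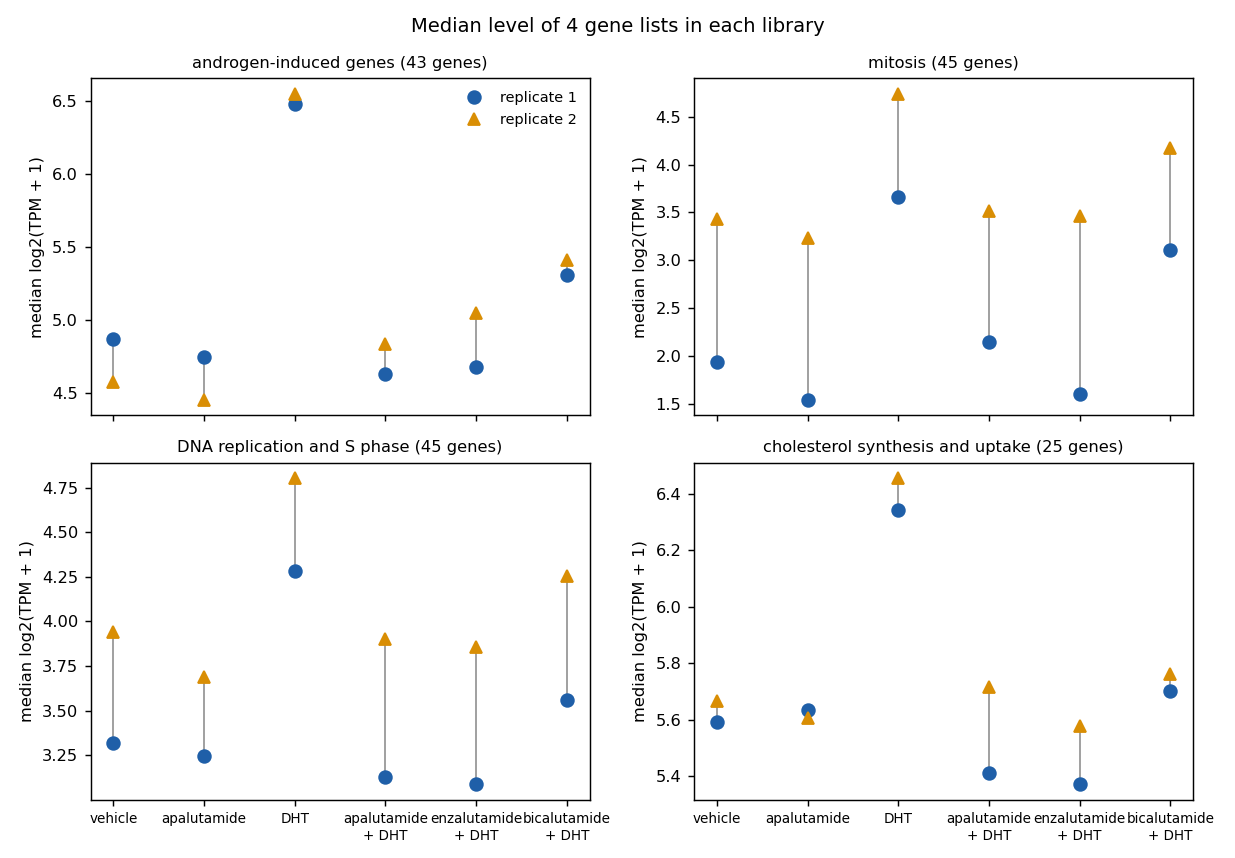
The median log2(TPM + 1) of 4 gene lists is shown in each library of 6 groups, with circles for replicate 1 and triangles for replicate 2 joined by a line. The androgen-induced and cholesterol lists separate DHT alone from every other group, whereas the mitosis list ranges from 1.54 to 4.74 and is higher in replicate 2 than in replicate 1 of all 6 groups.

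Genes that make and ship secreted proteins were also lower. Of 33 genes of protein folding in the endoplasmic reticulum, 25 fell and none (0) rose (9 fell without the block, 12 without replicate 1 of either group), with a median log2 fold change of -0.57. The disulfide isomerase PDIA5 fell from 59.4 and 70.3 TPM to 26.1 and 29.5 TPM. The chaperone HSPA5 was at 225 and 220.5 TPM against 152 and 234 TPM, did not separate the groups and was not called (adjusted p 0.226). Of 41 genes of transport to the Golgi, 29 fell and 1 rose (11 and 0 without the block), with a median of -0.54, and 14 fell without APA.DHT replicate 1 and 18 without either DHT library. SSR3, a subunit of the translocon-associated complex, fell from 162 and 212 TPM to 72.4 and 88.5 TPM. Of 30 genes that make or attach sugars, 14 fell and 1 rose (10 and 1 without the block). UAP1, which makes the activated form of N-acetylglucosamine, fell from 209 and 222 TPM to 56.7 and 49.3 TPM, by 2.00 on the log2 scale (SE 0.09, adjusted p 4.56e-07).

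Several biosynthetic enzymes fell as well. Spermine synthase, SMS, fell from 336 and 401 TPM to 97.3 and 106 TPM (log2 fold change -1.85, SE 0.07, adjusted p 1.72e-07). The list of 13 polyamine genes held 6 that fell, among them ODC1, the first enzyme of the pathway, and none (0) that rose. Without the block 2 fell, and ODC1 was not called (adjusted p 0.167). Of 31 genes of MYC and ribosome biogenesis, 20 fell and 1 rose, but 1 fell and none (0) rose without the block. Of 36 genes of glycolysis and the citrate cycle, 17 fell and 1 rose (7 and 1 without the block). LDHA, which makes lactate, fell from 479.95 and 672 TPM to 176 and 298 TPM (adjusted p 0.0798 without the block), and ENO2, the neuronal form of enolase, rose from 16.05 and 15.6 TPM to 43.6 and 51.5 TPM. Of 22 genes of the amino acid stress response, 5 fell and 1 rose (1 and 0 without the block). The glutamine carrier SLC1A5 fell from 56.6 and 77.4 TPM to 23.5 and 28.5 TPM, and the stress factor DDIT3 rose from 26.2 and 27.7 TPM to 74.1 and 40.5 TPM (adjusted p 0.0318, and 0.221 without the block).

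Fewer lists held more risers than fallers. Of 36 genes of antigen presentation and the interferon response, 9 rose (25.0%) and 2 fell, with a median log2 fold change of 0.22, and 3 rose without the block. Without DHT replicate 1, 5 rose, and without APA.DHT replicate 2 the median was 0.07. HLA-B and HLA-C, class I molecules that show peptides to T cells, were called higher, HLA-C not without the block (adjusted p 0.296). HLA-B rose from 65.7 and 44.4 TPM to 99.5 and 107.1 TPM (log2 fold change 0.92, SE 0.16, adjusted p 0.00195, and 0.0907 without the block). B2M, their shared light chain, was called lower, at 821 and 945 TPM against 719 and 589.9 TPM (adjusted p 0.0389, and 0.157 without the block). HLA genes are close copies with many alleles, which makes their division of reads uncertain. Of 15 genes of the BCL2 family, 4 rose and 2 fell (2 and 1 without the block). These are 26.7% and 13.3%, beside 13.2% and 14.1% over all genes. The risers were BMF, BBC3, BID and BIK, and the fallers BCL2L12 and PMAIP1. BMF, BBC3, BID, BIK and PMAIP1 encode proteins that promote cell death, so members of this kind moved in both directions. BID, BIK and PMAIP1 were not called without the block (adjusted p 0.112, 0.199 and 0.0832). BMF rose from 11.35 and 9.05 TPM to 27.03 and 28.01 TPM. BCL2L12 and PMAIP1 fell, by 0.85 and 0.51 on the log2 scale.

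Among 19 growth factor receptors and insulin pathway genes, 4 rose and 4 fell (2 and 2 without the block). IGF1R, the receptor of insulin-like growth factor, fell from 14.5 and 16.9 TPM to 2.17 and 3.42 TPM (log2 fold change -2.15, SE 0.15, adjusted p 6.77e-06). GRB10, an adaptor that restrains that receptor, rose from 81.9 and 67.5 TPM to 226 and 323 TPM. Of 37 genes of autophagy and lysosomes, 5 rose and 2 fell, or 13.5% and 5.41% beside 13.2% and 14.1% over all genes, and 1 rose and none (0) fell without the block. Within that list ATG3, which attaches lipid to autophagosome proteins, rose from 75.2 and 75.0 TPM to 289 and 265 TPM (log2 fold change 1.87, SE 0.08, adjusted p 2.4e-07), and WIPI1, a lipid sensor of the same process, fell from 20.25 and 13.5 TPM to 7.78 and 6.05 TPM (adjusted p 0.0735 without the block). Of 20 antioxidant genes under NRF2, 5 rose and 6 fell (1 and 2 without the block). The ferritin chains FTH1 and FTL rose by 0.64 and 0.57 on the log2 scale, FTH1 not without the block (adjusted p 0.348). Glutathione reductase, GSR, fell by 0.88.

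The counts that follow are to be read beside all genes, of which 14.1% fell and 13.2% rose (4.11% and 4.25% without the block). Among 22 zinc transporters and metallothioneins, 9 fell (40.9%) and 3 rose (13.6%), or 1 and 1 without the block. SLC39A7, a zinc carrier of the secretory pathway, was lower by 0.91. Of 21 keratins and adhesion genes, 7 fell and 1 rose (2 and 0 without the block), and KRT19, a simple epithelial keratin, fell from 40.7 and 22.3 TPM to 14.5 and 2.81 TPM (adjusted p 0.000398, and 0.118 without the block). Of 10 neuronal and neuroendocrine genes, 3 rose and 1 fell. NTS, the peptide neurotensin, rose from 0.35 and 0.12 TPM to 6.24 and 2.02 TPM, and the microtubule protein MAP2 fell from 20.24 and 22.81 TPM to 7.18 and 9.24 TPM. Of 14 noncoding RNAs of the prostate, 3 fell (21.4%) and 2 rose (14.3%), or 3 and 0 without the block. ARLNC1 fell from 3.63 and 3.64 TPM to 0.18 and 0.15 TPM. Of 13 surface proteins used as drug targets, 3 fell (23.1%) and 1 rose (7.69%), or 1 and 0 without the block. The riser was FOLH1, prostate-specific membrane antigen, at 675 and 647 TPM with DHT alone and 818 and 1022 TPM with apalutamide (log2 fold change 0.47, adjusted p 0.0109, and 0.0594 without the block). Of 13 genes of the response to foreign compounds, 3 rose (23.1%) and 1 fell (7.69%), or 2 and 0 without the block. The drug exporter ABCG2 was higher by 0.81 and UGT1A1 lower by 1.00. Of 13 respiratory chain genes of the mitochondrial genome, 1 fell, MT-ND6.

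**Figure D4:**
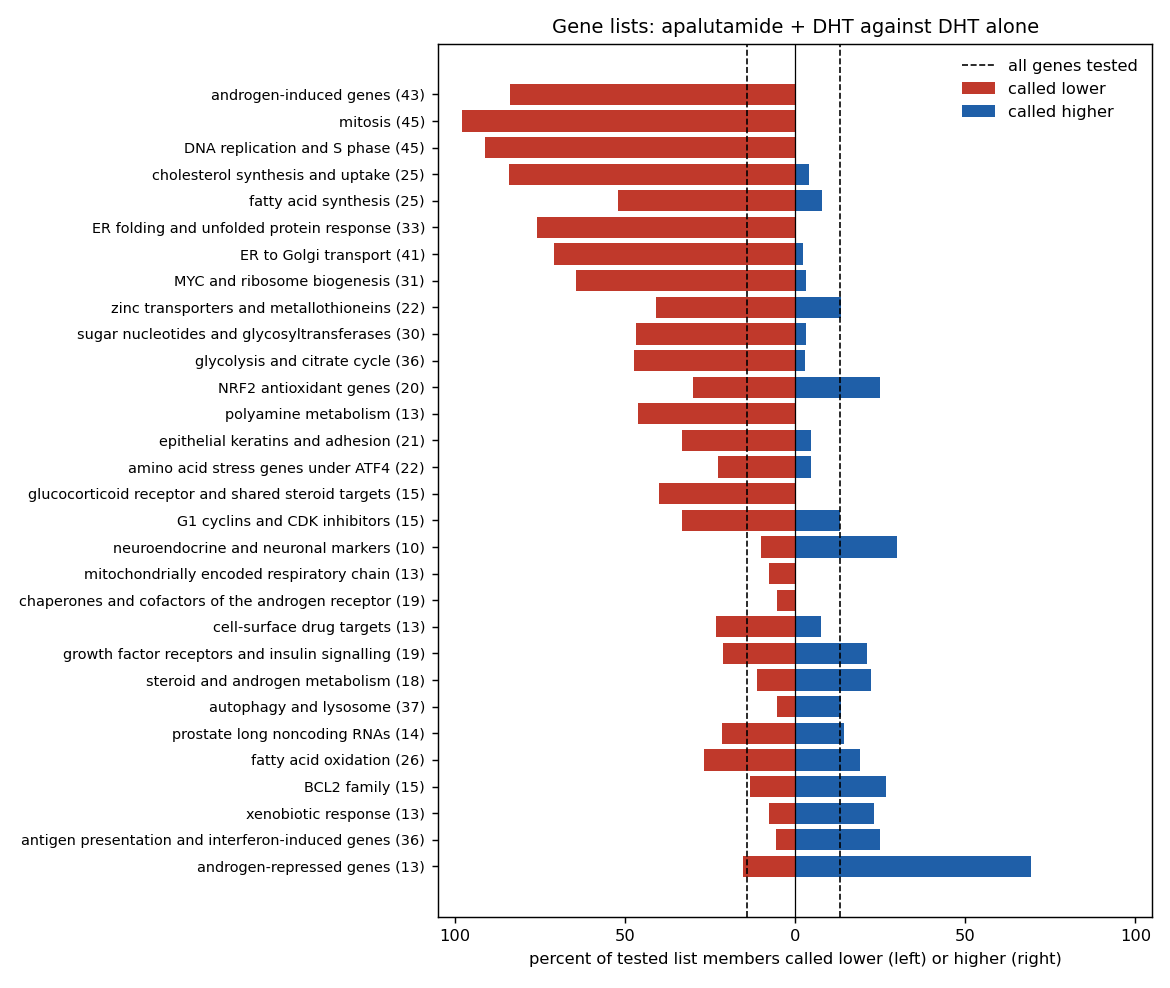
Bars give the percent of the tested members of each list called lower (red, to the left) or higher (blue, to the right) with apalutamide and DHT than with DHT alone, with the number tested in brackets and lists ordered by median log2 fold change. Dashed lines mark the shares over all genes, 14.1% lower and 13.2% higher, and the bars to the left are longest for mitosis, at 44 of 45 genes.

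The cells carried luminal genes and next to none of other cell types. Of 11 luminal markers 6 fell, 1 rose and 4 were not called (5 fell and none (0) rose without the block), and their summed level was 8525 and 6349 TPM with DHT alone and 2944 and 3159 TPM with apalutamide. KRT8 and KRT18, keratins of luminal cells, stood between 514 and 976 TPM in the 4 libraries. TP63, COL1A2, DCN, CDH5 and CD3E were listed at 0 in all 4, and PTPRC and PECAM1 did not exceed 0.02 TPM. The basal list summed to 1.68 and 1.75 TPM with DHT alone and 0.67 and 0.12 TPM with apalutamide. The endothelial list summed to at most 1.5 TPM. The leukocyte list summed to 1.52 to 6.90 TPM, nearly all from CD68. The fibroblast list summed to 12.3 and 17.2 TPM with DHT alone and 24.9 and 26.8 TPM with apalutamide, mostly from COL1A1, a collagen that was called higher (log2 fold change 0.70). Across the series, mitochondrial genes held 14.7% to 22.3% of the total. They held 22.3% and 14.7% with DHT alone and 19.2% and 16.2% with apalutamide, so replicate 1 stood above replicate 2 in both groups. Between the replicates with apalutamide and DHT, 6.17% of genes differed more than 2-fold, against 2.45% to 5.71% in the other groups. The part of these differences in the results was not tested.

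To ask whether cells with apalutamide and DHT resembled cells never given DHT, they were compared with vehicle. No gene (0 of 16636, 0%) was called by limma, with 1439 at an unadjusted p below 0.05 and 508 without the block. The size of some differences was large all the same. KLK3 was higher than in vehicle by 2.26 on the log2 scale, with a 95% interval of 1.55 to 2.98 (adjusted p 0.227). KLK2 was higher by 1.91 (interval 1.00 to 2.82, adjusted p 0.509). PLA2G2A differed by -0.01 (interval -0.22 to 0.19) and TMPRSS2 by -0.10 (interval -0.34 to 0.15). The median of the 43 androgen-induced genes was -0.03, and that of the mitosis genes 0.02, beside -0.10 over all genes. A difference that misses the threshold with 2 libraries a group does not show that the groups were alike.

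The effect of apalutamide with DHT was also compared with its effect without DHT. The 2 effects differed for 1686 genes (10.1%), 869 with a more positive (5.22%) and 817 with a more negative (4.91%) effect when DHT was present. Without the block they differed for 237 genes (1.42%), 103 (0.619%) and 134 (0.805%) in these directions. Of the 43 androgen-induced genes 32 differed in this way, and of the 45 mitosis genes 15. PLA2G2A was at 522 and 296 TPM with apalutamide without DHT and at 448 and 301 TPM with vehicle, and its 2 effects differed by 4.26 on the log2 scale (adjusted p 8.09e-08). For UGT2B17 the difference was 3.03 and for IFI27L2 3.11. Without DHT, apalutamide changed 2 genes (0.012%), which are named after their values were seen. The first was the small nuclear RNA RNU5E-1, listed at 0 outside that group. The other was ARHGEF26, a guanine nucleotide exchange factor whose gene overlaps an antisense gene. It fell from 65.1 and 51.05 TPM with vehicle to 32.7 and 27.9 TPM with apalutamide (log2 fold change -0.91, SE 0.09, adjusted p 0.00682), a call that was lost without the block (adjusted p 0.494). In the presence of DHT it fell from 99.5 and 92.7 TPM to 59.7 and 48.6 TPM (log2 fold change -0.82, adjusted p 0.000128), and the difference between these effects was 0.09 (adjusted p 0.71).

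Apalutamide was compared directly with the other drugs at the same dose, time and DHT, over 2 pairs of drugs. Against enzalutamide 1 gene was called (0.00601%), the unnamed transcript AC008752.1, which was listed at 2.7 and 5.42 TPM with enzalutamide and DHT and at 0 with apalutamide and DHT. None (0) of the 43 androgen-induced genes was called, and their differences lay between -0.30 and 0.32 on the log2 scale, with 42 of 43 intervals inside 1 log2 unit either way. KLK3 was at 296 and 115 TPM with enzalutamide, against 339.8 and 90.35 TPM with apalutamide, a difference of -0.07 (95% interval -0.79 to 0.64, adjusted p 1.0). For PLA2G2A the difference was 0.20 (interval -0.01 to 0.40). For TMPRSS2 it was -0.26 (interval -0.51 to -0.02, adjusted p 1.0). The mitosis genes were higher with apalutamide than with enzalutamide in 43 of 45 cases, by a median of 0.20, and none (0) was called.

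Against bicalutamide, 9 genes were called (0.0541%), 7 lower (0.0421%) and 2 higher (0.012%) with apalutamide. These calls rest on the block, since none (0) was made without it. At an unadjusted p below 0.05 there were 1643 genes with the block and 483 without. Of the 9 calls, a pseudocount of 0.1 left 5. Median-ratio scaling, leaving out mitochondrial genes and no filter left 3 each. The calls also did not hold when single libraries of either group were left out. SLC45A3 stood at 23.8 and 27.5 TPM with apalutamide and at 49.7 and 63.6 TPM with bicalutamide (log2 difference -1.11, SE 0.12, adjusted p 0.0342). TMPRSS2 stood at 46.05 and 27.2 TPM with apalutamide and 76.1 and 54.6 TPM with bicalutamide (-0.85, adjusted p 0.0342). PMEPA1, a membrane protein that curbs TGF-beta signalling, differed by -0.90 and ELOVL5 by -0.57 (adjusted p 0.0342 each). CENPN and PRIM1, the latter a subunit of the enzyme that starts new DNA strands, each differed by -0.89 (adjusted p 0.0383 each). The genes that were higher with apalutamide were PLA2G2A, at 453 and 293 TPM against 284 and 166 TPM (0.75, adjusted p 0.0342), and the unnamed AC016629.1, at 5.16 and 6.05 TPM against a listed 0 and 0.21 TPM.

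Of the 43 androgen-induced genes, 37 were lower with apalutamide than with bicalutamide and 6 higher, by a median of -0.44, and 5 were called. KLK3 was at 845 and 445 TPM with bicalutamide, which gave a difference of -1.80 (interval -2.52 to -1.08, adjusted p 0.121), large but not called over all genes. All 45 mitosis genes were lower with apalutamide, by a median of -0.72, and none (0) was called. The cholesterol genes differed by a median of -0.18 and the androgen-repressed genes by 0.07, each with none (0) called. Over all genes the median difference was -0.01 against bicalutamide and 0.02 against enzalutamide.

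**Figure D5:**
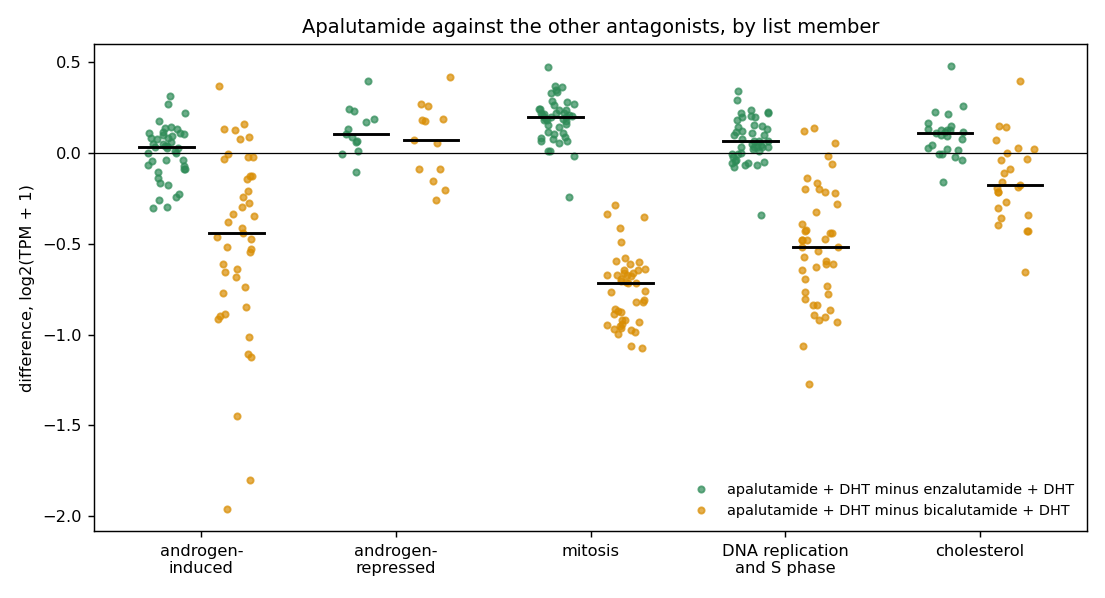
Each point is 1 gene of a list, with its log2(TPM + 1) difference between apalutamide with DHT and enzalutamide with DHT (green) or bicalutamide with DHT (orange), and black bars mark medians. Green points lie close to 0 in all 5 lists, whereas orange points of the androgen-induced and mitosis lists lie mostly below 0, with medians of -0.44 and -0.72.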

How the data were processed

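Bulk RNA of 16 LNCaP cultures was sequenced after selection of polyadenylated RNA (Illumina TruSeq stranded, 125 bp paired reads, about 40 M pairs per library per the labels). The authors checked and trimmed reads (FastQC 0.11.9 and Trim Galore 0.6.5), aligned them with STAR 2.7.2b to GRCh38 and estimated gene levels with RSEM 1.3.3, as their processing notes list. The deposited values are TPM per gene symbol, per library, with no pooling. TPM scales each library to a fixed total and holds no read numbers, so depth is unknown here and precision was judged from replicates alone. The table held 60642 symbols, 26439 of them listed at 0 in every library, and 0 columns of other samples. The RNA was spiked with ERCC controls, which are not used here.

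Genes at TPM 1 or more in at least 2 libraries (16636) were tested as log2(TPM + 1), a scale that understates changes of low genes. limma 3.58.1 in R 4.3.3 was fitted to all 16 libraries with 8 group means and the replicate number as a block, with the trend option. Benjamini-Hochberg adjustment was made across the genes tested in each comparison (threshold 0.05). The pairing by the number in the labels was part of how this comparison was defined. Same-numbered libraries deviated together in all 28 pairs of groups (correlation across genes 0.204 to 0.635). Between DHT alone and apalutamide with DHT the correlation was 0.312. Intervals are 95% intervals of the fit. The script was tested on simulated data. Alternatives were no block, pseudocount 0.1, no filter, median-ratio scaling, no mitochondrial genes, only the groups compared, and each library left out.

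Named genes are the 12 highest and 12 lowest called genes that averaged 5 TPM or more in 1 of the groups and whose libraries did not overlap, up to 2 called risers and 2 called fallers of each list, every call against enzalutamide or bicalutamide, the 3 most extreme calls of each further comparison, and KLK3, TMPRSS2, FKBP5 and MKI67. CAMK2N1, UGT2B15, AKR1C2, HSD17B14, INSIG1, FASN, AURKB, CCNB1, HLA-B, HLA-C, BID, BIK, FTL, KRT8 and KRT18 were added as examples after their values were seen, as were the 2 genes changed by apalutamide without DHT. Some genes that this rule names are not reported here, though counts and list values include them. Members and the 35 lists were chosen with earlier results of these data known. Positions and promoters are from RefSeq for GRCh38.p14; 10584 of the tested genes matched a promoter by symbol. The genome given with the data was of another build and was not used.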

Additional observations from a re-analysis of the deposited data

Results flagged for a closer look

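The effect of apalutamide differed between cells with and without DHT, by a test of the difference itself, for 1686 genes. Of the named genes, the difference (with DHT minus without DHT, log2 scale) was 4.26 for PLA2G2A, 3.11 for IFI27L2 and 3.03 for UGT2B17. The 5S ribosomal RNA genes RNA5S2, RNA5S3 and RNA5S17 each gave -6.12 (adjusted p 0.0222) and held identical values in every library, so they count as 1 result. Their values were 3.12 and 46.6 TPM with DHT alone, a listed 0 and 2.97 TPM with apalutamide and DHT, 8.01 and 56.98 TPM with apalutamide without DHT, and a listed 0 and 4.35 TPM with vehicle. This RNA is short and not usually polyadenylated, replicate 2 was above replicate 1 in each of these groups, and the part of either in the result was not tested. No group had the 4 libraries needed to look for a single library far from its group.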

How the results depend on the processing

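Without the replicate block 1391 genes were called for apalutamide with DHT against DHT alone, none (0) against bicalutamide and 237 for the difference of effects with and without DHT. Fits restricted to the compared groups, which leave few degrees of freedom, changed more, and there the counts were 0 against DHT alone (3591 genes at an unadjusted p below 0.05), 0 against enzalutamide, 0 against bicalutamide, 16 against vehicle and 562 for the difference of effects. A pseudocount of 0.1 gave 0 against enzalutamide and 5 against bicalutamide. No filter gave 8 against enzalutamide and 4 against vehicle. Median-ratio scaling gave 3 against bicalutamide, and leaving out mitochondrial genes 3. The other settings gave 3928 to 5280 calls against DHT alone. Leaving out 1 library gave 2588 to 4466 calls against DHT alone (2588 without DHT replicate 1, 2954 without DHT replicate 2), 0 to 10 against enzalutamide (10 without ENZ.DHT replicate 2), 0 to 1 against bicalutamide, 0 to 2 against vehicle and 653 to 1783 for the difference of effects (653 and 733 without apalutamide-alone replicates 1 and 2, 835 and 671 without vehicle replicates 1 and 2, 910 without DHT replicate 1). The lone library left in a group is then assumed to vary like the other groups. Of the 125 results for named genes that are reported here, none (0) changed direction under these settings. The fits without the block and with only the groups compared return the same estimates by design. Most named genes were also chosen by their calls, so the kept direction largely follows from the selection and is no separate support. Significance was lost for 56 without the block, 119 in fits restricted to the compared groups, 22 with no filter and 4 to 6 under the other settings, and 122 times when 1 library was left out. Read depth is unknown, so no limit from depth can be given.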
